A study of Mus musculus with 13 samples.

Results

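Tight and gap junction genes were followed as a set of 33 named genes: 17 claudins, occludin and its tetraspan relatives, the junctional adhesion molecules with Cxadr, the cytoplasmic scaffolds, the polarity proteins Pard3 and Pard6b, and the connexins Gja1, Gjb2 and Gjc1. They are 33 of the 20738 genes that could be named on the array. Further claudins, such as Cldn5, and Marveld1 are on a list of other tight junction genes described at the end. The set was named gene by gene, with no threshold on a measured value, but with earlier results of these data known. Of the 33 genes, 31 passed the filter on dim signal and were tested, while Cldn16 and Cldn18 did not.

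The 13 one-colour arrays held 7 groups of mouse cells or tissue. Mouse embryonic fibroblasts (MEF, 2 arrays) were wild type and carried an empty vector, and tail tip fibroblasts (TTF, 2 arrays) were wild type and carried tdTomato, a red fluorescent protein. Induced embryonic Sertoli cells (ieSC) carried 5 transgenes that encode gonadal transcription factors, Nr5a1, Wt1, Dmrt1, Gata4 and Sox9. They came from TTF on 2 arrays (TTF-ieSC) and from MEF on 1 array (MEF-ieSC). The native wild-type groups carried no transgene: the male gonad of embryos at 14.5 dpc, Sertoli cells of the embryonic testis at 19 dpc (immature) and Sertoli cells of mice aged 8 weeks (mature), with 2 arrays each. The design text names duplicates in every group, so 1 array of MEF-ieSC is not analysed here. Both fibroblast types had been kept for 3 passages in 10% fetal bovine serum. The induced cells had been kept for 6 months in 2% serum with doxycycline, which the labels give as 2 mg/ml. The immature and mature Sertoli cells had spent 3 and 7 days in culture, also in 10% serum, and the gonad went uncultured. Factors, serum, doxycycline and time in culture therefore changed together in each induction and cannot be told apart. Strain, the number of animals, and whether the replicate arrays of a group came from separate cultures or clones are not given, so the p-values below rest on the spread between arrays alone, which can be purely technical.

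Sertoli cells are the epithelial support cells of the seminiferous tubule. Neighbouring Sertoli cells seal the tubule with tight junctions, the blood-testis barrier, which forms after birth and separates the later stages of germ cell development from the blood. In a tight junction the claudins form the strands that set what passes between cells, occludin and tricellulin lie along and at the corners of the strands, and the zonula occludens proteins and cingulin tie them to actin. Gap junctions, built from connexins, let small molecules pass directly between cells, and in the testis connexin 43 (Gja1) is the best known of them. Claudin 11 is required in mice for the Sertoli cell barrier and for fertility.

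Levels are the authors' deposited log2 signals, on a scale where every array had a median of 7.488 and a 75th percentile of 10.473. A gene counted as changed in a comparison where limma's adjusted p was under 0.05. Replicate arrays were 0.167 to 0.310 apart over all genes (root mean square of log2 values) and 0.114 to 0.409 apart over the 31 tested junction genes, with the widest gaps among these in genes at or under the median, such as Cldn8 (1.87 between the TTF-ieSC arrays) and Cldn1 (1.56 between the mature Sertoli arrays). The gonad arrays of the untested Cldn16, at 7.02 and 4.92, were farther apart (2.10). The 10 Sertoli markers averaged 8.73 to 8.97 in MEF, 7.72 to 7.74 in TTF, 11.92 to 12.00 in the induced cells, 12.83 to 12.86 in immature and 13.20 to 13.27 in mature Sertoli cells. Wt1, Sox9, Gata4 and Dmrt1 are on that list and are also transgenes of the induction. Amh (8.30) and Cst9 (7.42) were under the 75th percentile in immature Sertoli cells, Amh (6.59) and Dmrt1 (10.29) in mature ones, and Sox9 (9.79), Amh (7.36), Gata4 (6.92), Dmrt1 (9.17) and Aard (5.51) in TTF-ieSC. The native cultures also held signal of other testis cells: 5 of the 8 germ cell markers lay above the 75th percentile in immature Sertoli cells, 4 in mature Sertoli cells and 0 in the induced cells. All 4 Leydig markers with a feature lay above it in immature (average 12.09 to 12.17) and mature Sertoli cells (12.07 to 12.15), against 1 in either kind of ieSC. The 6 peritubular and smooth muscle markers averaged 15.33 to 15.40 and 16.00 to 16.03 in the native cultures against 10.14 to 10.20 in TTF-ieSC. They averaged 15.62 in MEF, 13.40 to 13.43 in TTF and 11.64 to 11.72 in gonad, so they were also bright in fibroblasts from outside the testis. Of 12 general epithelial markers, 9 lay above the 75th percentile in immature Sertoli cells, 8 in gonad, 4 in either kind of ieSC and 3 in mature Sertoli cells. In each group 42.8% to 44.0% of all named genes had a mean above that mark. The part of other cell types in the differences below was not tested, and in bulk RNA fewer cells of a type cannot be told apart from less RNA per cell.

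In both inductions cingulin, claudin 3, occludin, tricellulin, ZO-3 and JAM-A rose, and their differences from immature Sertoli cells afterwards lay between -1.02 (tricellulin) and 2.27 (claudin 3). Claudin 15 rose by 6.38 and 7.50 to a level found in no native group, and claudin 11 rose by 1.14 and 1.12 and still differed from immature Sertoli cells by -7.38 and -7.08. Connexins 43 and 26 (Gja1 and Gjb2) fell under the array median in both kinds of induced cell. By group, 9 of the 33 genes had a mean above the 75th percentile in MEF, 8 in TTF, 11 in either kind of ieSC, 12 in gonad, 15 in immature and 10 in mature Sertoli cells. Of all 20738 named genes, 42.8% to 44.0% had such a mean in each group, the percentile being that of all features.

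**Figure D1:**
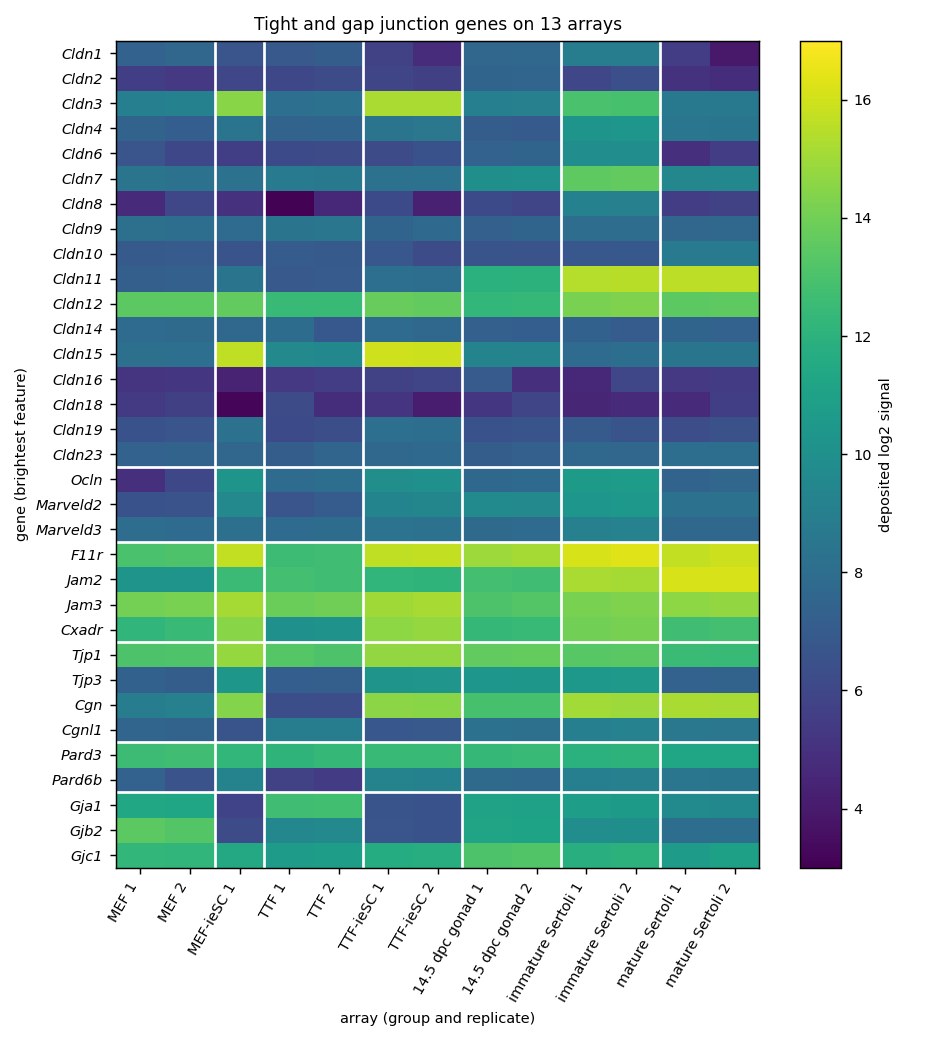
Deposited log2 signal (colour) of the 33 junction genes (vertical axis, grouped by family) on each of the 13 arrays (horizontal axis, group and replicate). Cldn15 is bright on the 3 induced arrays, Cldn11 on the immature and mature Sertoli arrays, and Gja1 is dim on the 3 induced arrays.

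Of the junction genes, 4 are shown here by the 250 bases before their transcription start, chosen for the rises of Cldn3 and Cldn15, the largest shortfall against immature Sertoli cells (Cldn11) and the largest fall from TTF (Gja1). The sequences are RefSeq's, build GRCm38.p6, all on the + strand: Cldn3 at chr5:134985964-134986213, Cldn15 at chr5:136967619-136967868, Cldn11 at chr3:31149670-31149919 and Gja1 at chr10:56377050-56377299. Capitals mark a short word of the binding motif of a factor of the induction, searched on both strands: the word AGATAA, the word TGATAA, the word AGATAG or the word TGATAG for GATA factors, the word ACAAAG or the word ACAATG for SOX factors, the word AAGGTCA or the word AAGGCCA for Nr5a1, and the word GTGGGAG for Wt1.
Cldn3: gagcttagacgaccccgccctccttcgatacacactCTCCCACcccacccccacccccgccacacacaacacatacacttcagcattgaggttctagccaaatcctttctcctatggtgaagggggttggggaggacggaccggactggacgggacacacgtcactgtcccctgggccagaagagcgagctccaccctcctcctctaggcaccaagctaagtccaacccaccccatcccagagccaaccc
Cldn15: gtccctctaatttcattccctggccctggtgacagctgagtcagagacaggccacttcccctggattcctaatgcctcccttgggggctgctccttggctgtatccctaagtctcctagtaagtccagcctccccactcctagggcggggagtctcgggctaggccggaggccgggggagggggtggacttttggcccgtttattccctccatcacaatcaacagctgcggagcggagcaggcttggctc
Cldn11: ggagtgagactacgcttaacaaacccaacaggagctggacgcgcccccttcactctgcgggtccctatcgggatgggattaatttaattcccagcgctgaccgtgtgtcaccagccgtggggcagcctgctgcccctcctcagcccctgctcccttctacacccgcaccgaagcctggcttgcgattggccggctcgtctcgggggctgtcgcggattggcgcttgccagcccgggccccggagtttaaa
Gja1: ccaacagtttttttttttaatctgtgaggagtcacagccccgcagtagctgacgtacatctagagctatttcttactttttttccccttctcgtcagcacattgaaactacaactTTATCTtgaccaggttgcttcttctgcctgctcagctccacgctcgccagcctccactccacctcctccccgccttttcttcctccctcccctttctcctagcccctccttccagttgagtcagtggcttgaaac
The Cldn3 window held the Wt1 word on the other strand, starting at position -214 from the start, and the Gja1 window held a GATA word on the other strand, starting at -135. The Cldn15 and Cldn11 windows held none of these words. Their GC contents were 60.8% for Cldn3, 60.8% for Cldn15, 63.6% for Cldn11 and 50.0% for Gja1. Among 32851 promoters of the same length, a GATA word was present in 26.5%, a SOX word in 25.2%, an Nr5a1 word in 9.1% and the Wt1 word in 8.2%. Of the junction genes, 25 had at least 1 promoter in the table, 37 promoters in all: a GATA word was found in 9 of the 37 promoters, a SOX word in 5, an Nr5a1 word in 3 and the Wt1 word in 3. A match is a description of these letters and no evidence of binding.

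Among the claudins, Cldn3, a barrier-forming claudin known from newly assembled Sertoli cell junctions in mice, had levels of 9.07 and 9.15 in MEF, 8.13 and 8.20 in TTF, 15.21 and 15.22 in TTF-ieSC, 14.49 in MEF-ieSC, 9.07 and 9.12 in gonad, 12.98 and 12.91 in immature and 8.64 and 8.68 in mature Sertoli cells. It was therefore bright in the induced and immature Sertoli cells and near its fibroblast level in gonad and mature Sertoli cells. It rose by 7.05 ± 0.06 (SE, adjusted p = 8.4e-12), 132-fold on the deposited scale, from TTF and by 5.38 ± 0.07 (adjusted p = 1.48e-10) from MEF. In the induced cells it exceeded immature Sertoli cells by 2.27 ± 0.06 (TTF-ieSC) and 1.55 ± 0.07 (MEF-ieSC), and from immature to mature Sertoli cells it differed by -4.28 ± 0.06. Its neighbour on chromosome 5, Cldn4, with no coding gene between them, moved less: the level was 7.47 and 7.16 in MEF, 7.43 and 7.52 in TTF, 8.36 and 8.55 in TTF-ieSC, 8.41 in MEF-ieSC, 7.13 and 6.97 in gonad, 10.25 and 10.37 in immature and 8.48 and 8.42 in mature Sertoli cells. Cldn4, a claudin of many simple epithelia, rose by 0.98 ± 0.12 from TTF and 1.09 ± 0.14 from MEF, and the induced cells differed from immature Sertoli cells by -1.86 ± 0.12 and -1.90 ± 0.14. A second Cldn4 feature gave rises of 2.40 and 1.40.

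Cldn15, a claudin that forms sodium pores between intestinal epithelial cells, had levels of 15.98 and 15.93 in TTF-ieSC and 15.66 in MEF-ieSC. Elsewhere its levels were 8.19 and 8.13 in MEF, 9.60 and 9.55 in TTF, 9.27 and 9.26 in gonad, 7.91 and 8.05 in immature and 8.44 and 8.43 in mature Sertoli cells. Every array outside the induced cells was at 9.60 or lower. The rise was 6.38 ± 0.06 (adjusted p = 1.16e-11) from TTF and 7.50 ± 0.07 (adjusted p = 7.72e-11) from MEF, and the level exceeded immature Sertoli cells by 7.97 ± 0.06 and 7.68 ± 0.07 and gonad by 6.69 ± 0.06 (TTF-ieSC). Cldn19, a claudin of kidney tubules and of Schwann cells, was also highest in the induced cells, at a lower signal: 8.12 and 8.07 in TTF-ieSC and 8.22 in MEF-ieSC against 6.51 and 6.71 in MEF, 6.13 and 6.35 in TTF, 6.54 and 6.65 in gonad, 6.95 and 6.64 in immature and 6.33 and 6.49 in mature Sertoli cells. It rose by 1.86 ± 0.13 (adjusted p = 1.48e-06) and 1.61 ± 0.15 (adjusted p = 2.14e-05). Only the induced arrays lay above the median for Cldn19, which passed the filter through them, so a difference there had to appear.

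Cldn11, the claudin of the Sertoli cell barrier, was highest in the native Sertoli cells. Its levels were 15.43 and 15.50 in immature and 15.59 and 15.63 in mature Sertoli cells, 11.96 and 11.99 in gonad, 8.10 and 8.07 in TTF-ieSC, 8.39 in MEF-ieSC, 7.24 and 7.30 in MEF, and 6.90 and 7.00 in TTF. The induced arrays lay between the fibroblasts and the gonad and overlapped neither. Cldn11 rose by 1.14 ± 0.06 (adjusted p = 1.51e-07) from TTF and by 1.12 ± 0.07 (adjusted p = 1.03e-06) from MEF. Against immature Sertoli cells the difference was -7.38 ± 0.06 (adjusted p = 1.65e-11) in TTF-ieSC, 167-fold on the deposited scale, and -7.08 ± 0.07 in MEF-ieSC. Against gonad it was -3.89 ± 0.06 in TTF-ieSC. Between immature and mature Sertoli cells it differed by 0.14 ± 0.06, a call at the threshold (adjusted p = 0.0496) that was lost without the filter (adjusted p = 0.0642) and in most fits with 1 array left out.

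Cldn7, a claudin of the basolateral membrane of many epithelia, also marked the native immature cells: 13.52 and 13.66 there, 9.46 and 9.49 in mature Sertoli cells, 9.96 and 10.00 in gonad, 8.37 and 8.30 in MEF, 8.85 and 8.65 in TTF, 8.23 and 8.20 in TTF-ieSC and 8.23 in MEF-ieSC. The induced arrays were the lowest of all 13. Cldn7 fell by 0.53 ± 0.08 from TTF (adjusted p = 0.000245), differed from MEF by -0.10 ± 0.09 (adjusted p = 0.363), and differed from immature Sertoli cells by -5.37 ± 0.08 in TTF-ieSC and -5.36 ± 0.09 in MEF-ieSC. Cldn6, a claudin of embryonic epithelia, reached 9.84 and 9.87 in immature Sertoli cells and 7.40 and 7.52 in gonad, against 4.90 to 6.68 on the other arrays. Cldn8, a claudin of the distal nephron, reached 9.13 and 9.11 in immature Sertoli cells and 3.10 to 6.15 on the rest. Both passed the filter through the immature arrays, so their higher level there had to appear. Neither rose in an induction: Cldn8 differed by 1.34 ± 0.68 from TTF (adjusted p = 0.105) and -0.38 ± 0.83 from MEF (adjusted p = 0.705), and Cldn6 by 0.22 ± 0.24 (adjusted p = 0.426) and by -0.77 ± 0.29 (adjusted p = 0.043), a fall between levels under the median. Cldn1, a general barrier claudin, had levels of 8.96 and 8.87 in immature Sertoli cells, 7.60 and 7.71 in gonad, 7.42 and 7.62 in MEF, 6.91 and 7.11 in TTF, 6.68 in MEF-ieSC, 5.75 and 4.79 in TTF-ieSC and 5.54 and 3.98 in mature Sertoli cells. It fell by 1.74 ± 0.46 from TTF (adjusted p = 0.00824), and in MEF the difference was -0.84 ± 0.57 (adjusted p = 0.219), but without TTF-ieSC replicate 2 the difference from TTF was -1.26 and missed the threshold (adjusted p = 0.0587).

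Cldn12, a widely expressed claudin, was bright everywhere, from 12.25 in gonad to 14.32 in immature Sertoli cells, and rose by 1.19 ± 0.06 from TTF, while in MEF the difference was 0.16 ± 0.08 (adjusted p = 0.0948). Cldn10, which forms ion-selective channels, was above the median only in mature Sertoli cells, at 8.70 on both arrays, against 6.28 to 7.10 on the rest, and was 1.88 ± 0.14 higher there than in immature Sertoli cells. Cldn2, a cation and water pore, was highest in gonad, at 7.49 and 7.57, against 4.85 to 6.43 on the rest. Cldn10 passed the filter through the mature arrays alone and Cldn2 through the gonad arrays alone, so a difference there had to appear. Cldn9, known from the inner ear, lay between 7.29 and 8.52 on every array and fell by 0.82 ± 0.10 from TTF, while in MEF the difference was -0.23 ± 0.13 (adjusted p = 0.131). Cldn23 lay between 7.13 and 8.08. Cldn14, another inner ear claudin, passed the test in none of the 12 comparisons, with limma's adjusted p from 0.0611 to 0.924. The untested Cldn16 and Cldn18 lay between 4.40 and 7.02 and between 3.18 and 6.18. Cldn10, Cldn2, Cldn6, Cldn8 and Cldn19 are dim outside their brightest group, so their folds depend on a background that is not known.

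**Figure D2:**
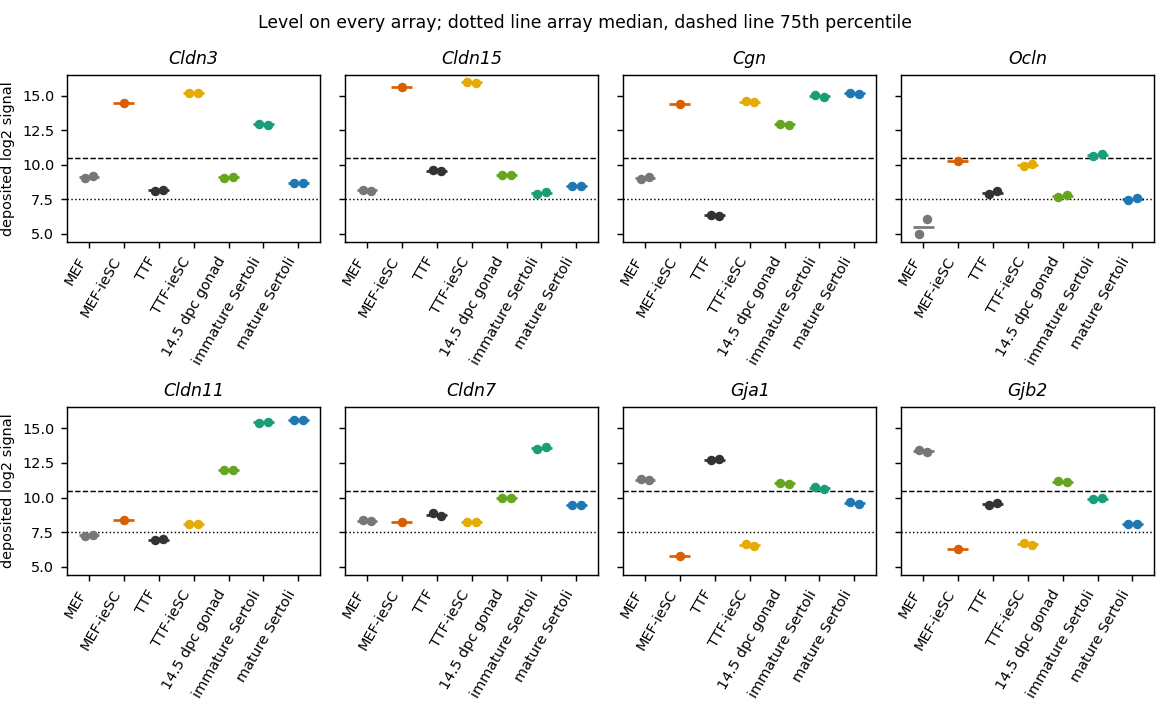
Deposited log2 signal (vertical axis) of 8 junction genes on every array by group (horizontal axis), with a point per array and a bar at the group mean; the lines mark the array median of 7.488 and the 75th percentile of 10.473. Cldn15 is bright only in the induced cells and Cldn11 only in the native ones, with an intermediate gonad, while Cgn is bright in both, and Gja1 and Gjb2 drop under the median in the induced cells.

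Occludin and tricellulin, the tetraspan proteins that run with the claudin strands, rose together. Ocln (occludin) had levels of 4.95 and 6.05 in MEF, 7.88 and 8.07 in TTF, 9.93 and 10.04 in TTF-ieSC, 10.24 in MEF-ieSC, 7.67 and 7.80 in gonad, 10.61 and 10.75 in immature and 7.43 and 7.61 in mature Sertoli cells. It rose by 2.01 ± 0.29 from TTF (adjusted p = 0.000212) and by 4.74 ± 0.35 from MEF (adjusted p = 3.86e-06), with the MEF arrays under the median. The induced arrays lay below both immature arrays, with differences of -0.69 ± 0.29 in TTF-ieSC (adjusted p = 0.0539) and -0.44 ± 0.35 in MEF-ieSC (adjusted p = 0.286). Those differences missed the threshold, and both passed it once either MEF array, between which Ocln differs widely, was left out (adjusted p = 0.00044 and 0.0135). A second Ocln feature rose by 2.24 and 4.73. Marveld2 (tricellulin, found where 3 cells meet), the gene next to Ocln on chromosome 13, rose by 2.51 ± 0.10 and 3.04 ± 0.12 to 9.34 to 9.60, against 6.53 to 7.05 in the fibroblasts, 9.59 and 9.62 in gonad and 10.36 and 10.45 in immature Sertoli cells. Marveld3, a relative of both, rose by 0.37 ± 0.06 and 0.26 ± 0.07 on its brightest feature and by 2.85 in TTF-ieSC on another.

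Of the immunoglobulin-type adhesion molecules, F11r (JAM-A) had levels of 12.99 and 13.11 in MEF, 12.59 and 12.72 in TTF, 15.64 and 15.72 in TTF-ieSC, 15.72 in MEF-ieSC, 14.93 and 15.12 in gonad, 16.16 and 16.32 in immature and 15.74 and 15.94 in mature Sertoli cells. It rose by 3.03 ± 0.10 (adjusted p = 1.34e-08) and 2.67 ± 0.13 (adjusted p = 1.93e-07) and differed from immature Sertoli cells by -0.56 ± 0.10 and -0.52 ± 0.13. Cxadr, the coxsackievirus and adenovirus receptor, a Sertoli cell junction protein, had levels of 12.21 and 12.46 in MEF, 10.03 and 10.21 in TTF, 14.63 and 14.81 in TTF-ieSC, 14.52 in MEF-ieSC, 12.32 and 12.44 in gonad, 14.00 and 14.12 in immature and 12.68 and 12.83 in mature Sertoli cells. The induced arrays were above every other array. It rose by 4.60 ± 0.11 (adjusted p = 1.59e-09) and 2.19 ± 0.14 (adjusted p = 1.27e-06). On the brightest feature it exceeded immature Sertoli cells by 0.66 ± 0.11 and 0.46 ± 0.14, but on the other feature the differences were 0.31 (adjusted p = 0.0534) and 0.00 (adjusted p = 0.981).

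Jam2 (JAM-B), which Sertoli cells use to bind germ cells, had levels of 10.24 and 10.26 in MEF, 12.80 and 12.71 in TTF, 12.21 and 12.10 in TTF-ieSC, 12.55 in MEF-ieSC, 12.81 and 12.69 in gonad, 15.24 and 15.13 in immature and 16.17 and 16.14 in mature Sertoli cells. The fibroblasts differed by 2.51 ± 0.07 (TTF minus MEF) and the induced cells by -0.39 ± 0.08 (TTF-ieSC minus MEF-ieSC). Jam2 fell by 0.60 ± 0.07 from TTF (adjusted p = 4.8e-05) and rose by 2.30 ± 0.08 from MEF (adjusted p = 3.8e-08). Its differences from immature Sertoli cells were -3.03 ± 0.07 and -2.64 ± 0.08. The 3 Jam2 features disagree: in TTF-ieSC the others gave differences of 1.93 and -0.51, and the feature that rose showed a difference from immature Sertoli cells of 0.08 (adjusted p = 0.529). Jam3 (JAM-C), whose partner is JAM-B, had levels of 15.03 and 15.18 in TTF-ieSC and 15.09 in MEF-ieSC, above 14.09 and 14.20 in MEF, 13.84 and 13.94 in TTF, 13.11 and 13.26 in gonad, 14.19 and 14.29 in immature and 14.64 and 14.72 in mature Sertoli cells. It rose by 1.21 ± 0.08 and 0.94 ± 0.10 and exceeded immature Sertoli cells by 0.87 ± 0.08 and 0.85 ± 0.10.

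The scaffold with the largest rise was Cgn (cingulin), which links the junction to actin and to RhoA regulators. Its levels were 8.94 and 9.11 in MEF, 6.34 and 6.32 in TTF, 14.58 and 14.51 in TTF-ieSC, 14.42 in MEF-ieSC, 12.94 and 12.91 in gonad, 15.05 and 14.94 in immature and 15.22 and 15.15 in mature Sertoli cells. The induced arrays passed the gonad and lay just under the Sertoli cells. Cgn rose by 8.21 ± 0.07 from TTF (adjusted p = 1.01e-11), where it had been under the median, and by 5.40 ± 0.09 from MEF (adjusted p = 3.53e-10), with remaining differences from immature Sertoli cells of -0.45 ± 0.07 and -0.57 ± 0.09. Its relative Cgnl1 (paracingulin), present at both tight and adherens junctions, moved the other way: 7.59 and 7.43 in MEF, 8.96 and 8.93 in TTF, 6.78 and 6.90 in TTF-ieSC, 6.65 in MEF-ieSC, 8.30 and 8.15 in gonad, 9.05 and 9.18 in immature and 8.61 and 8.56 in mature Sertoli cells. It fell by 2.10 ± 0.08 from TTF and fell by 0.86 ± 0.10 from MEF, to under the median.

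Tjp1 (ZO-1), the scaffold that binds claudins directly, had levels of 13.07 and 13.17 in MEF, 13.30 and 13.08 in TTF, 14.73 and 14.71 in TTF-ieSC, 14.76 in MEF-ieSC, 13.64 and 13.67 in gonad, 13.35 and 13.40 in immature and 12.55 and 12.48 in mature Sertoli cells. The induced arrays were the highest of the 13. Tjp1 rose by 1.53 ± 0.07 (adjusted p = 1.56e-07) and 1.64 ± 0.09 (adjusted p = 5.8e-07), and exceeded immature Sertoli cells by 1.34 ± 0.07 and 1.38 ± 0.09. Tjp3 (ZO-3), a scaffold largely of epithelia, rose by 3.08 ± 0.08 and 3.14 ± 0.10 to levels of 10.26 to 10.39, beside 10.33 and 10.40 in gonad and 10.44 and 10.60 in immature Sertoli cells. In mature Sertoli cells Tjp3 was at 7.39 and 7.46, near the fibroblasts (7.15 to 7.35). Of the polarity proteins, Pard6b, which brings atypical protein kinase C to the junction, rose by 3.57 ± 0.22 and 2.27 ± 0.27 to 9.14 to 9.27, with 9.07 and 9.09 in immature Sertoli cells and adjusted p of 0.626 and 0.581 for the differences from them. Pard3, its partner, lay at 12.60 and 12.70 in MEF, 12.11 and 12.30 in TTF, 12.48 and 12.46 in TTF-ieSC, 12.26 in MEF-ieSC, 12.35 and 12.48 in gonad, 11.94 and 12.07 in immature and 11.28 and 11.24 in mature Sertoli cells. It rose by 0.26 ± 0.08 from TTF and fell by 0.39 ± 0.10 from MEF, while another of its 4 features rose by 2.18 in TTF-ieSC.

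Of the gap junction genes, Gja1 (connexin 43) had levels of 11.35 and 11.24 in MEF, 12.72 and 12.78 in TTF, 6.66 and 6.52 in TTF-ieSC, 5.80 in MEF-ieSC, 11.02 ± 0.03 (mean and SD, n = 2) in gonad, 10.79 and 10.63 in immature and 9.65 and 9.52 in mature Sertoli cells. Only the 3 induced arrays lay under the median. Gja1 fell by 6.16 ± 0.08 from TTF (adjusted p = 5.71e-11) and by 5.49 ± 0.10 from MEF (adjusted p = 7.27e-10). Against immature Sertoli cells it differed by -4.13 ± 0.08 in TTF-ieSC and -4.91 ± 0.10 in MEF-ieSC, and against gonad by -4.43 ± 0.08 in TTF-ieSC. The array holds 10 features for Gja1, and all 10 fell, with log2 differences from -7.31 to -6.16 in TTF-ieSC and from -7.04 to -4.59 in MEF-ieSC. All 10 are assigned to the same transcript and were read on the same arrays, so they are repeat readings and not replicates. Whether their probe sequences differ was not checked. Within an array the 10 features had an SD of 0.05 to 0.11 where the gene was bright, and of 0.30 and 0.54 on the TTF-ieSC arrays and 0.78 on the MEF-ieSC array.

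**Figure D3:**
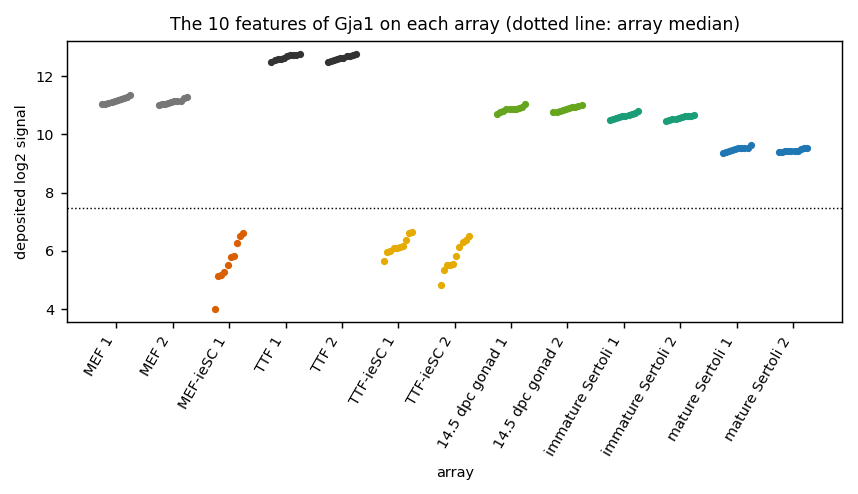
Deposited log2 signal (vertical axis) of each of the 10 Gja1 features on every array (horizontal axis, features in order of signal within an array), with the array median as a dotted line. The features lie under the median on the 3 induced arrays, between 4.01 and 6.66, and at 9.38 or more on all others.

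Gjb2 (connexin 26), a connexin of many epithelia, fell to the same dim range from fibroblasts that differed. Its levels were 13.45 and 13.28 in MEF, 9.46 and 9.57 in TTF, 6.68 and 6.55 in TTF-ieSC, 6.24 in MEF-ieSC, 11.16 and 11.13 in gonad, 9.88 and 9.97 in immature and 8.08 and 8.05 in mature Sertoli cells. It fell by 2.90 ± 0.08 from TTF (adjusted p = 2.77e-09) and by 7.12 ± 0.09 from MEF (adjusted p = 1.65e-10), and differed from immature Sertoli cells by -3.31 ± 0.08 and -3.68 ± 0.09. Gjc1 (connexin 45), known from heart and smooth muscle, stayed bright throughout: 12.27 and 12.20 in MEF, 10.66 and 10.79 in TTF, 11.69 and 11.70 in TTF-ieSC, 11.44 in MEF-ieSC, 13.08 and 13.20 in gonad, 11.79 and 11.97 in immature and 10.68 and 10.94 in mature Sertoli cells. It rose by 0.97 ± 0.10 from TTF and fell by 0.80 ± 0.12 from MEF. Of the 3 connexins, Gja1 and Gjb2 were therefore lower in the induced cells than in any other group, and Gjc1 was not.

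Counted over the 31 tested genes, 19 rose and 8 fell from TTF to TTF-ieSC, with a median difference of 0.98, against 0.06 over all genes tested. In that comparison 74.7% of all genes passed the test, 39.5% upwards and 35.2% downwards. With a difference of 1 or more, 14 rose and 4 fell, where 33.7% of all genes passed that mark in either direction. From MEF to MEF-ieSC 17 rose and 6 fell, with a median of 0.54 against 0.01, where 67.9% of all genes passed, 34.3% upwards and 33.6% downwards, and 14 rose and 2 fell by 1 or more, where 29.2% of all genes did so. The rises include that of Cldn19, which passed the filter through the induced arrays and so had to appear. Counted with no filter over all 33 genes, 18 rose and 8 fell from TTF, and 16 rose and 6 fell from MEF. Of the 12 general epithelial markers, 9 rose and 2 fell from TTF (median 1.45) and 6 rose and 4 fell from MEF (median 0.28). Of the 7 fibroblast markers 6 fell in each induction (medians -5.15 and -5.85), as did all 6 peritubular markers, and their part in these counts was not tested.

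**Figure D4:**
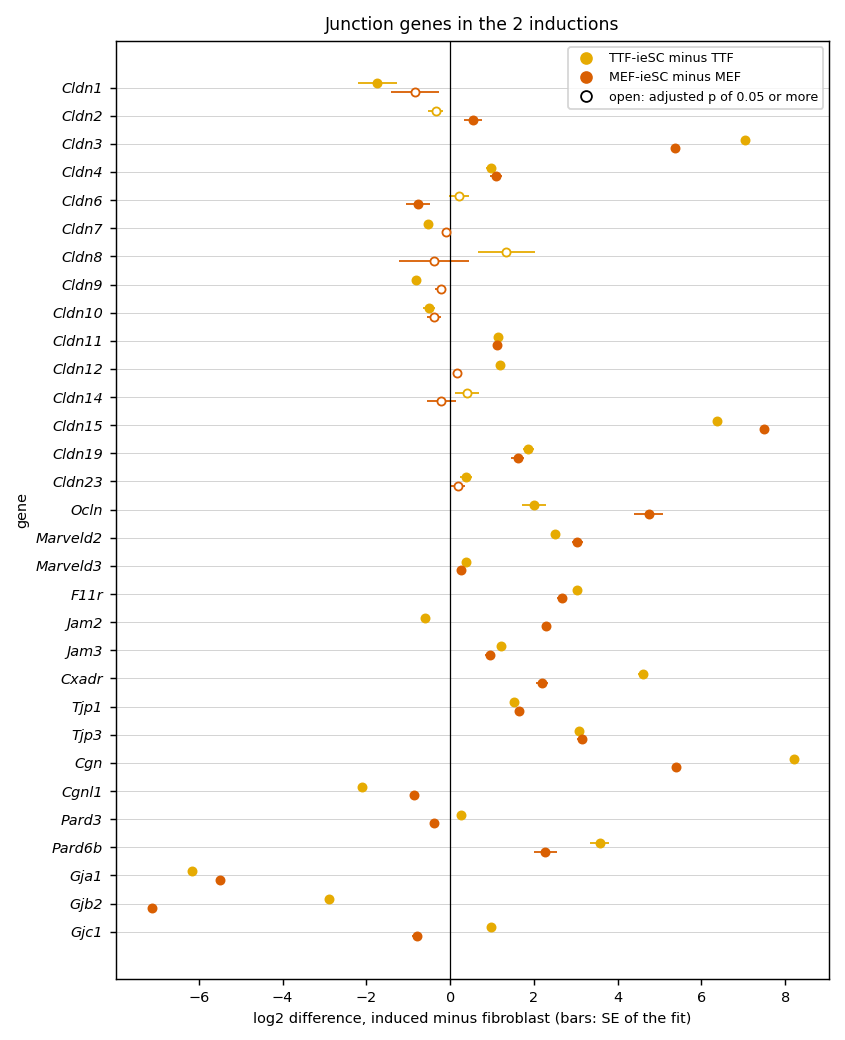
Log2 difference of induced minus fibroblast signal (horizontal axis, bars the SE of the fit) for each of the 31 tested genes (vertical axis), in TTF-ieSC minus TTF and in MEF-ieSC minus MEF, with open points where limma's adjusted p was 0.05 or more. Cgn (8.21), Cldn3 (7.05) and Cldn15 (6.38) lie farthest right for TTF, and Gjb2 (-7.12) and Gja1 (-5.49) farthest left for MEF.

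Between the starting fibroblasts 21 of the 31 genes differed and between the 2 kinds of induced cell 6, the latter with 1 MEF-ieSC array. Between TTF and MEF 9 genes were higher in TTF and 12 lower, with 5 and 5 of them by 1 or more, and a median of -0.20 against -0.03 over all genes, of which 66.6% passed (31.1% higher, 35.5% lower, 19.3% by 1 or more). The largest were Jam2 (2.51 ± 0.07, but -0.44 on another feature), Ocln (2.48 ± 0.29), Gja1 (1.45 ± 0.08) and Cgnl1 (1.44 ± 0.08), higher in TTF, and Gjb2 (-3.85 ± 0.08), Cgn (-2.70 ± 0.07), Cxadr (-2.22 ± 0.11) and Gjc1 (-1.51 ± 0.10), lower. Between the induced cells 4 genes were higher in TTF-ieSC and 2 lower, none by 1 or more, with a median of 0.04 against 0.00, where 14.3% of all genes passed (7.53% higher, 6.76% lower, 2.74% by 1 or more). The 4 were Gja1 (0.79 ± 0.10), Cldn3 (0.72 ± 0.07), Gjb2 (0.37 ± 0.09) and Cldn15 (0.30 ± 0.07), and the 2 were Jam2 (-0.39 ± 0.08) and Cldn11 (-0.30 ± 0.07). With either TTF-ieSC array left out the count of calls dropped. None of the 6 calls held in a limma fit of these 3 arrays alone. That fit called almost no gene of any kind, so it cannot tell the junction genes from the rest. The Gja1 and Gjb2 differences are between signals under the median, where another Gja1 feature gave -0.62. The test of the difference between the inductions shares these arrays. The signed change from TTF was the more positive in 8 genes and the more negative in 9, with 7 and 4 by 1 or more. Gjb2, which fell less from TTF than from MEF, is therefore among the 8, and Gja1, which fell more, among the 9. The median was 0.12 against 0.05, where 54.1% of all genes passed (28.9% and 25.2%, and 20.1% by 1 or more).

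Against immature Sertoli cells, TTF-ieSC were higher in 7 genes and lower in 17, with 4 and 11 of them by 1 or more, and a median of -0.45 against 0.01. Of all genes 76.8% passed, 37.8% higher and 39.0% lower, and 31.4% by 1 or more. MEF-ieSC were higher in 7 and lower in 16, with 4 and 10 by 1 or more and a median of -0.44 against -0.01, where 70.6% of all genes passed, 34.4% higher and 36.2% lower, and 31.1% by 1 or more. Both comparisons share the immature arrays. The 4 genes higher by 1 or more were Cldn15, Cldn3, Tjp1 and Cldn19 (1.30 ± 0.13 and 1.43 ± 0.15) in each. The largest shortfalls were those of Cldn11, Cldn7, Gja1 and Cldn8 (-3.91 ± 0.68) in TTF-ieSC, and of Cldn11, Cldn7, Gja1 and Cldn6 (-4.25 ± 0.29) in MEF-ieSC. Cldn19 passed the filter through the induced arrays, and Cldn8 and Cldn6 through the immature ones, so the differences of these genes had to appear. With no filter 7 were higher and 17 lower, and 6 higher and 16 lower, of the 33 genes.

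Against the uncultured gonad, TTF-ieSC were higher in 15 genes and lower in 10, with 11 and 9 by 1 or more and a median of 0.26 against -0.03, where 79.7% of all genes passed, 38.2% higher and 41.5% lower, and 35.7% by 1 or more. The leading genes were Cldn15, Cldn3 (6.12 ± 0.06), Cxadr (2.34 ± 0.11) and Ocln (2.25 ± 0.29) above the gonad, and Gjb2 (-4.53 ± 0.08), Gja1, Cldn11 and Cldn1 (-2.38 ± 0.46) below it. In the gonad all 8 germ cell markers lay above the 75th percentile and the 4 Leydig markers with a feature averaged 15.74 to 15.76, against 7.45 to 7.89 in TTF-ieSC.

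**Figure D5:**
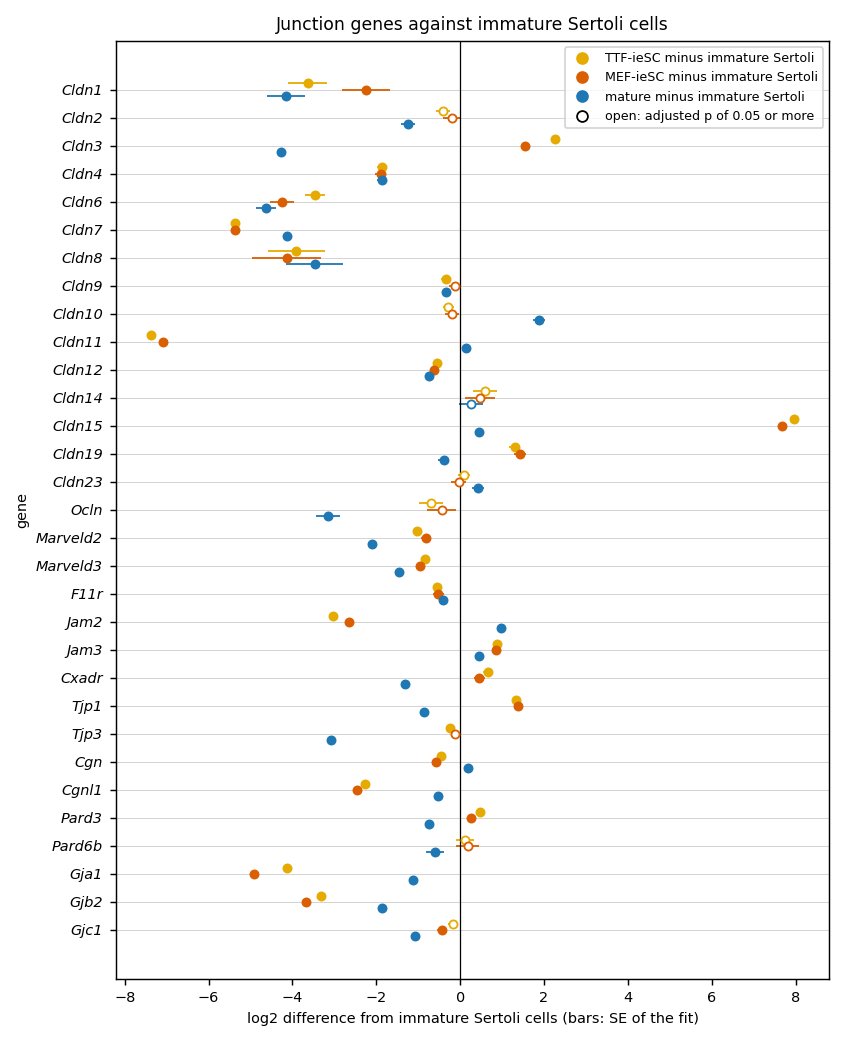
Log2 difference from immature Sertoli cells (horizontal axis, bars the SE of the fit) for each of the 31 tested genes (vertical axis), in TTF-ieSC, MEF-ieSC and mature Sertoli cells, with open points where limma's adjusted p was 0.05 or more; the 3 comparisons share the immature arrays. Cldn15 lies at 7.97 and 7.68 in the induced cells, Cldn11 at -7.38 and -7.08, and mature Sertoli cells lie at 0.45 and 0.14 for the same genes.

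Immature Sertoli cells were higher than MEF in 20 junction genes and lower in 5, 17 and 1 by 1 or more, with a median of 1.39 against -0.00, where 71.8% of all genes passed (36.2% higher, 35.6% lower, 24.2% by 1 or more). They were higher than TTF in 22 and lower in 3, 18 and 2 by 1 or more, with a median of 1.75 against 0.04, where 78.0% of all genes passed (41.0% higher, 37.1% lower, 34.1% by 1 or more). Against MEF the leading genes were Cldn11 (8.20 ± 0.06, adjusted p = 4.21e-11), Cgn (5.97 ± 0.07), Cldn7 (5.26 ± 0.08) and Ocln (5.18 ± 0.29), and the leading lower ones Gjb2 (-3.44 ± 0.08), Pard3 (-0.64 ± 0.08), Gja1 (-0.58 ± 0.08) and Gjc1 (-0.36 ± 0.10). Against TTF they were Cldn11 (8.52 ± 0.06, adjusted p = 2.83e-11), Cgn (8.67 ± 0.07), Cldn8 (5.25 ± 0.68) and Cldn7 (4.84 ± 0.08), and, lower, Gja1 (-2.04 ± 0.08), Cldn15 (-1.59 ± 0.06) and Cldn9 (-0.46 ± 0.10). Cldn6 and Cldn8 passed the filter through the immature arrays, so their higher level there had to appear. The Gjc1 call against MEF was lost without MEF replicate 1 (adjusted p = 0.0596) or immature replicate 1 (adjusted p = 0.0771). Of the 20 genes higher than in MEF, 13 (65.0%) were among those that rose from TTF to TTF-ieSC, arrays that the first comparison does not use; they are 68.4% of the 19 that rose. For all genes these shares were 54.1% and 49.6%. The 7 that did not rise were Cgnl1, Cldn1, Cldn2, Cldn6, Cldn7, Cldn8 and Jam2, of which 4 fell. Of the 22 higher than in TTF, 15 (68.2%) were among the 17 that rose from MEF to MEF-ieSC (88.2%), against 43.3% and 51.7% over all genes. The 7 that did not rise were Cldn1, Cldn12, Cldn6, Cldn7, Cldn8, Gjb2 and Gjc1, of which 3 fell. Tjp1 counts among the genes higher than in MEF (0.26 ± 0.07) and than in TTF (0.19 ± 0.07, limma's adjusted p = 0.0484). In limma fits of the compared groups alone both calls were lost (adjusted p = 0.0511 and 0.165). The call against TTF was also lost without the filter (adjusted p = 0.0663) and in most fits with 1 array left out.

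Immature Sertoli cells were higher than gonad in 20 junction genes and lower in 7, 16 and 4 by 1 or more, with a median of 1.05 against -0.03, where 70.5% of all genes passed (32.6% higher, 37.9% lower, 24.3% by 1 or more). Cldn3 (3.85 ± 0.06), Cldn7 (3.61 ± 0.08), Cldn11 (3.49 ± 0.06) and Cldn4 (3.27 ± 0.12) led the higher genes, and Cldn2 (-1.33 ± 0.17), Cldn15 (-1.28 ± 0.06), Gjc1 (-1.26 ± 0.10) and Gjb2 (-1.22 ± 0.08) the lower ones. Cldn2 was tested only for its signal on the gonad arrays, so its difference had to appear. So did those of Cldn6 (2.40 ± 0.24) and Cldn8 (3.08 ± 0.68), which passed the filter through the immature arrays. Here the epithelial markers averaged 12.68 to 12.71 in immature Sertoli cells and 11.06 to 11.08 in gonad, and their part in the result was not tested.

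From immature to mature Sertoli cells 7 junction genes were higher and 23 lower, 1 and 15 by 1 or more, with a median of -0.86 against -0.09, where 68.5% of all genes passed (28.9% higher, 39.6% lower, 21.3% by 1 or more). Cldn10, tested only for its signal on the mature arrays, Jam2 (0.97 ± 0.07), Cldn15 (0.45 ± 0.06) and Jam3 (0.45 ± 0.08) were the leading higher genes. Cldn6 (-4.63 ± 0.24), Cldn3, Cldn1 (-4.15 ± 0.46) and Cldn7 (-4.12 ± 0.08) were the leading lower genes. The differences of Cldn6 and of Cldn8 (-3.47 ± 0.68), which passed the filter through the immature arrays, had to appear. Ocln (-3.16 ± 0.29), Tjp3 (-3.09 ± 0.08) and Marveld2 (-2.11 ± 0.10) were lower with them, while the differences of Cldn11 and Cgn were 0.14 ± 0.06 and 0.19 ± 0.07. A second Jam2 feature differed by 0.17 (adjusted p = 0.128), and the F11r difference (-0.40 ± 0.10) lost its call without mature replicate 1 (adjusted p = 0.0603) or without immature replicate 2 (adjusted p = 0.0521). The epithelial markers averaged 12.68 to 12.71 in immature and 9.48 to 9.50 in mature Sertoli cells, with 0 of 12 higher and 10 lower. The groups also differ in age and in days of culture, and the part of these in the result was not tested. With no filter 5 of the 33 genes were higher and 22 lower.

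Other genes of the same pathways were read from lists named by function. Of 39 further tight junction and polarity genes, 32 were tested: 14 rose and 11 fell from TTF, 13 rose and 10 fell from MEF, and 10 were higher and 14 lower in TTF-ieSC than in immature Sertoli cells. As given above, 74.7%, 67.9% and 76.8% of all genes passed in these 3 comparisons. The claudin Cldn5, known from endothelium, had a mean of 12.96 in gonad and of 6.80 to 8.56 in the other groups. The largest changes from TTF were those of Crb2, an apical polarity protein (6.54 ± 0.05), Lsr, angulin-1, which recruits tricellulin (6.12 ± 0.08), and Pard6g, a relative of Pard6b (-5.17 ± 0.08). From MEF they were those of Pard6g (-5.52 ± 0.10), Esam, an adhesion molecule of endothelium (4.75 ± 0.08), and Crb2 (4.31 ± 0.06). Esam was 5.19 ± 0.06 higher and Pard6g lower (-5.15 ± 0.08) in TTF-ieSC than in immature Sertoli cells, and Igsf5, a relative of the junctional adhesion molecules, was lower too (-4.57 ± 0.18). Esam is also on the endothelial marker list, of which 3 of 8 members rose from TTF and 3 fell.

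Of 20 other connexins and pannexins, 6 were tested: 2 rose and 3 fell from TTF (74.7% of all genes passed), 1 rose and 2 fell from MEF (67.9%), and 1 was higher and 3 lower in TTF-ieSC than in immature Sertoli cells (76.8%). The gene that rose in both was Gjb1 (connexin 32, a connexin of liver and Schwann cells), by 0.90 ± 0.08 and 0.52 ± 0.10. The largest falls were those of Gjb5 (-2.46 ± 0.19) and Gja6 (-1.75 ± 0.60) from TTF and of the channel protein Panx1 (-0.77 ± 0.09) and Gja5 (-0.59 ± 0.17) from MEF. No tested connexin of that list thus rose by as much as 1 in an induction. Of 28 genes of ectoplasmic specialisations, desmosomes and other adhesion, 27 were tested: 12 rose and 14 fell from TTF (74.7% of all genes passed), 10 rose and 12 fell from MEF (67.9%), and 8 were higher and 14 lower in TTF-ieSC than in immature Sertoli cells (76.8%). Among the largest changes, Pkp2 (5.08 ± 0.10) and Dsg2 (3.92 ± 0.14) rose from TTF and Dsp (4.19 ± 0.09) from MEF, all of them desmosomal. From TTF to TTF-ieSC the mean of Dsp also went up, from 10.22 to 13.62, as did that of Jup, from 8.02 to 9.54. The means of Dsc2 (8.31 in TTF and 5.74 in TTF-ieSC) and Pkp3 (13.34 and 12.57) went down. Nectin1 (-6.09 ± 0.11) fell from TTF, Cdh3 (P-cadherin, -5.05 ± 0.12) and the actin bundler Fscn1 (-4.34 ± 0.08) fell from MEF, and Nectin1 (-4.81 ± 0.11), Cdh3 (-4.79 ± 0.10) and Cdh1 (E-cadherin, -4.46 ± 0.36) were lower in TTF-ieSC than in immature Sertoli cells.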

How the data were processed

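RNA was measured on 1-colour Agilent arrays, 1 sample per array. The authors deposited log2 signal for every feature, already brought to 1 distribution on every array (lowest 0.566, median 7.488, highest 18.872). The submitters' processing notes name limma without its version or its role. How features were extracted and background corrected is not given in the sources used here. The deposited table flags no feature as detected, so a fold against a level near the median depends on an unknown background. Arrays have no read depth, and their number limits the precision.

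Names came from the platform annotation, updated with a RefSeq table of GRCm38.p6. The brightest feature by mean stood for a gene. Genes above the median on at least 2 arrays were tested (16658), among them 31 junction genes. All 13 arrays entered 1 fit (lmFit and eBayes, limma 3.58.1, R 4.3.3) with 6 residual and 2.18 prior degrees of freedom, and the spread of the lone MEF-ieSC array was taken to be that of the other groups. The two-sided tests were adjusted by Benjamini-Hochberg over all 16658 genes. Errors are SE of the fit. Replicate numbers only follow the order of the arrays and pair nothing.

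The genes and lists were chosen with earlier results of these data known. Given on every array were Cldn11, Cldn3, Ocln, Tjp1, F11r, Cxadr, Gja1 and, per comparison, the 4 leading rises and the 4 leading falls among calls whose arrays do not overlap between groups. Of these, Cldn2, Cldn6, Cldn8, Cldn9 and Cldn10 are given wholly or partly as a range, and Gja1 in gonad as mean and SD. The alternatives were quantile normalization, other filters, the mean of features or every feature, a minimum difference of 1, a variance trend, array weights, the compared groups alone (with the single MEF-ieSC array, an alternative added after the data were seen), and leaving out each array. Some genes of the other lists are not reported here.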

Additional observations from a re-analysis of the deposited data

Results flagged for a closer look

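The change from TTF to TTF-ieSC differed from the change from MEF to MEF-ieSC by 1 or more, tested as an interaction in the limma fit, in 11 junction genes of 31, where 20.1% of all genes did so. The change from TTF was the larger (more positive) for Gjb2 by 4.23 (adjusted p = 7.57e-08), Cgn by 2.82 (3.28e-07), Cxadr by 2.42 (9.54e-06), Gjc1 by 1.76 (3.35e-05), Cldn3 by 1.66 (1.49e-06), Pard6b by 1.30 (0.0138) and Cldn12 by 1.03 (5.47e-05). It was the smaller for Jam2 (-2.90, 2.64e-07), Ocln (-2.73, 0.00116), Cgnl1 (-1.25, 9.54e-05) and Cldn15 (-1.12, 1.98e-05). In Jam2 and Gjc1 both inductions passed the test in opposite directions. The MEF arm has 1 induced array. Between the 2 kinds of induced cell, 4 of the 11 genes passed the test, where 14.3% of all genes passed: Cldn3 (0.72), Gjb2 (0.37), Cldn15 (0.30) and Jam2 (-0.39). Another feature gave 0.54 for Jam2, a limma call in the other direction (adjusted p = 0.0263), and another gave -2.48 for Ocln (adjusted p = 0.0812).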

How the results depend on the processing

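Quantile normalization could change next to nothing, because the deposited arrays already share 1 distribution, and no paired analysis was possible because the replicate numbers only follow the order of the arrays. A filter at the 75th percentile leaves 16 junction genes to test, which lowers the counts by itself. Cldn15 passed it through the induced arrays alone, and Cldn7 and Ocln through the immature arrays alone, so their differences there had to appear. The share of all genes called under this filter is not given here, so the calls listed next are no result about the junction genes as a set. Of these 16, the calls were 16 in TTF-ieSC against TTF, 14 in MEF-ieSC against MEF, 15 and 15 in TTF-ieSC and MEF-ieSC against immature Sertoli cells, 15 in TTF-ieSC against gonad, 15, 16 and 16 in immature Sertoli cells against MEF, TTF and gonad, and 16 in mature against immature Sertoli cells. A minimum difference of 1 left 11 of 17 between the inductions, 15 and 14 in TTF-ieSC and MEF-ieSC against immature Sertoli cells, 16 in mature against immature Sertoli cells, 10 of 21 in TTF against MEF and 0 of 6 in TTF-ieSC against MEF-ieSC. With each array left out in turn the last count ranged from 3 to 6. Directions turned in few cases, and the cause was not tested. Leaving out an array gave -0.03 to 0.07 for Cldn11 between the inductions, -0.03 to 0.18 for Tjp1 in TTF against MEF and -0.07 to 0.00 for F11r in TTF-ieSC against MEF-ieSC, none of them a call. Another Jam2 feature gave 0.54 between the inductions (limma's adjusted p = 0.0263) and -0.44 in TTF against MEF (adjusted p = 0.00603), both calls in the other direction. In TTF-ieSC against MEF-ieSC another feature gave 0.01 for Ocln, -0.62 for Gja1 and 0.10 for Jam2, none of them a call. Over single genes, 2733 of the values under an alternative kept direction and side of the threshold, 68 lost a call, 8 gained one and 9 turned. Fits of the compared groups alone that hold the single MEF-ieSC array, whose spread was taken from the other arrays in the fit, were added after the data were seen. They gave no limma call of a junction gene in TTF-ieSC against MEF-ieSC, where almost no gene of any kind was called. In the other 3 comparisons with that array they gave calls, among many calls over all genes. A single residual degree of freedom was left in TTF-ieSC against MEF-ieSC, but also in MEF-ieSC against MEF and against immature Sertoli cells. These fits are therefore no result about the junction genes as a set.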
